A study of Mus musculus with 38 samples.

Results

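H3K18la peaks of M1 macrophages that overlapped no M1 H3K18ac peak by a single base are described here: 853 peaks of the 16139 in the M1 H3K18la list, with 15286 H3K18la peaks that did overlap H3K18ac set beside them. The peaks were selected on the M1 peak positions of both marks, so the peaks' own fold enrichment, q values and distance to H3K18ac are given as description, with no test. The cells were primary bone marrow-derived macrophages of C57BL/6 mice. M1 cells had received LPS at 5 ng/ml and IFNg at 12 ng/ml for 24 h, and M0 cells were unstimulated. Each mark was measured in 1 ChIP-seq library per state on MNase-digested chromatin, with an input library for M1 and for M0. RNA-seq covered 8 groups of 4 libraries: cells at 0, 4, 8, 16 and 24 h of LPS and IFNg, and cells that also received lactic acid (LA), added 4 h after LPS and IFNg and collected at 8, 16 and 24 h. The LA dose and the number of mice are not given in the sources used here. Where the libraries' separate origin is not stated, p-values measure only the spread between these libraries.

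Histone lactylation joins a lactyl group, derived from lactate, to a lysine, and H3K18la is the lactylated form of lysine 18 in the tail of histone H3. H3K18ac, the acetylated form of the same residue, is written by p300 and CBP and marks active promoters and enhancers. One lysine of one histone tail can carry only one of these groups at a time, but a peak adds up many nucleosomes, so peaks of both marks can lie at the same place. LPS and IFNg drive macrophages into the M1 state, in which glycolysis and lactate production increase. The absence of an H3K18ac peak says only that the authors' peak caller found none there, since no signal track was used here.

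Promoters at 4 genes are shown as examples of a peak over or beside a start, chosen after their values were seen: Csf2 and Gfi1 have a peak over the promoter where M0 cells had neither mark, Nr4a1 has one over the promoter edge where M0 cells had both, and Lss has one directly downstream of the start where M0 cells had both. Such places are a minority, since 18.6% of the 853 peaks lay within 1 kb of a start and 5.86% had both marks in M0, and no place with H3K18ac only in M0 (16.4%) is shown. Each sequence is the 250 bases upstream of the transcription start on the gene's own strand, from RefSeq, build GRCm38.p6, with capitals on matches to the motifs searched. Csf2 lies on the minus strand (chr11:54249900-54250149), Gfi1 on the minus strand (chr5:107724344-107724593), Nr4a1 on the plus strand (chr15:101266596-101266845) and Lss on the plus strand (chr10:76531355-76531604).
Csf2: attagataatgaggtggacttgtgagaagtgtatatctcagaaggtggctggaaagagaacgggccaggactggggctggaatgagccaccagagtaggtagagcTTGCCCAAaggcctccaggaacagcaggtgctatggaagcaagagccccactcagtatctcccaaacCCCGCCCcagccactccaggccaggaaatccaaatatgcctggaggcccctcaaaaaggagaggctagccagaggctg
Gfi1: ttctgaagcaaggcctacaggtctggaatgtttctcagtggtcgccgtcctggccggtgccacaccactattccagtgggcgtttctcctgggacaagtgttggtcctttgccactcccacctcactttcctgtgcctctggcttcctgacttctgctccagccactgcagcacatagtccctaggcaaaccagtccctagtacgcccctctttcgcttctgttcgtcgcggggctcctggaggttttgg
Nr4a1: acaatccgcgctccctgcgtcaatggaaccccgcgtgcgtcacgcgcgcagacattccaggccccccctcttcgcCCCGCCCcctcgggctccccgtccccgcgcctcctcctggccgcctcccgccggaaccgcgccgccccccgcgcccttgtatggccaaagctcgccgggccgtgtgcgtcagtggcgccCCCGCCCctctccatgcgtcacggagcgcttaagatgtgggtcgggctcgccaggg
Lss: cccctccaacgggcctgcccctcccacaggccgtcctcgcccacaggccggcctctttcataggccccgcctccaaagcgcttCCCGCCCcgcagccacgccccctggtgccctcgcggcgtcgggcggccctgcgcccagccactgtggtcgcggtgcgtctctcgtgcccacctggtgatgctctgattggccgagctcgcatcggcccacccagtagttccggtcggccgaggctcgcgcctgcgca
The capitals in Csf2 mark a short C/EBP site (TTGCNNAA) 145 bases before the start and a GC box (GGGCGGG on either strand) 78 bases before it. The Nr4a1 stretch holds GC boxes 175 and 56 bases before the start, the Lss stretch holds one at 167 bases, and none of the searched motifs matched in the Gfi1 stretch. The peak covered all 250 of these bases at Csf2 and at Gfi1, 138 of them at Nr4a1 and 0 at Lss, where it began 49 bases past the start. GC content was 55.2% at Csf2, 57.6% at Gfi1, 74.4% at Nr4a1 and 73.6% at Lss, and the number of CpG dinucleotides was 2, 9, 34 and 28 in the same order.

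The libraries behind these peaks held 21006731 mouse reads for M1 H3K18la and 32948615 for M1 H3K18ac, and the M1 H3K18ac list was longer, at 42237 peaks. The M0 lists held 21885 H3K18la and 41493 H3K18ac peaks from 21765076 and 36576826 mouse reads. The authors' spike-in factors were 0.46 for M1 H3K18la and 0.96 for M1 H3K18ac relative to M0, and whether the peak lists used them is not stated. In the RNA, all 20 macrophage markers were listed, with sums of 38211 to 50645 RPKM (reads per kilobase of gene per megaread) at 24 h and 19974 to 22429 at 0 h. Neutrophil markers, 8 of 15 listed, summed to 473 to 818 RPKM at 24 h and 28.1 to 36.1 at 0 h. The listed ones were S100a8, S100a9, Camp, Ngp, Ltf, Lcn2, Mmp8 and Csf3r, and their sum was not split by gene. Of 15 lymphocyte markers 3 were listed, summing to 19.2 to 26.2 RPKM at 24 h and 22.4 to 26.7 at 0 h, and stromal, endothelial and erythroid markers (8 of 15) summed to 4.29 to 5.18 at 24 h and 1.71 to 2.45 at 0 h. The part of other cell types in the results below was not tested.

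The 853 peaks were weak and short. Their median fold enrichment over background, the authors' own value per peak, was 3.18 (quartiles 3.12 and 3.30, range 1.37 to 4.47), against a median of 4.26 and a range of 2.63 to 25.1 for H3K18la peaks with H3K18ac. Median length was 720 bp (range 280 to 2864), against 1180 bp. Their median deposited -log10 q was 2.54 and the highest 6.12, against a median of 5.85 and a highest of 122. In all they covered 672007 bp, against 25126078 bp for the H3K18la peaks with H3K18ac.

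The weaker an H3K18la peak was, the more often H3K18ac was missing. Of 122 H3K18la peaks with a -log10 q of 2 to 2.25, 61 (50%) had no H3K18ac peak. The share was 25.7% of 1249 peaks between 2.25 and 2.5, 16.2% of 1935 between 2.5 and 3, 5.47% of 2393 between 3 and 4, and 0.758% of 3560 between 4 and 6.5. Above 6.5 it was 0 of 6880 peaks. Because strength and H3K18ac go together in this way, the comparisons of M0 state and place also give the 7982 H3K18la peaks with H3K18ac whose -log10 q did not exceed that of the strongest peak without it (the same strength range, with a median of 3.57). At the low end of those strengths the median lengths were close: 739 bp without H3K18ac and 815 bp with it at -log10 q of 2 to 2.25.

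**Figure D1:**
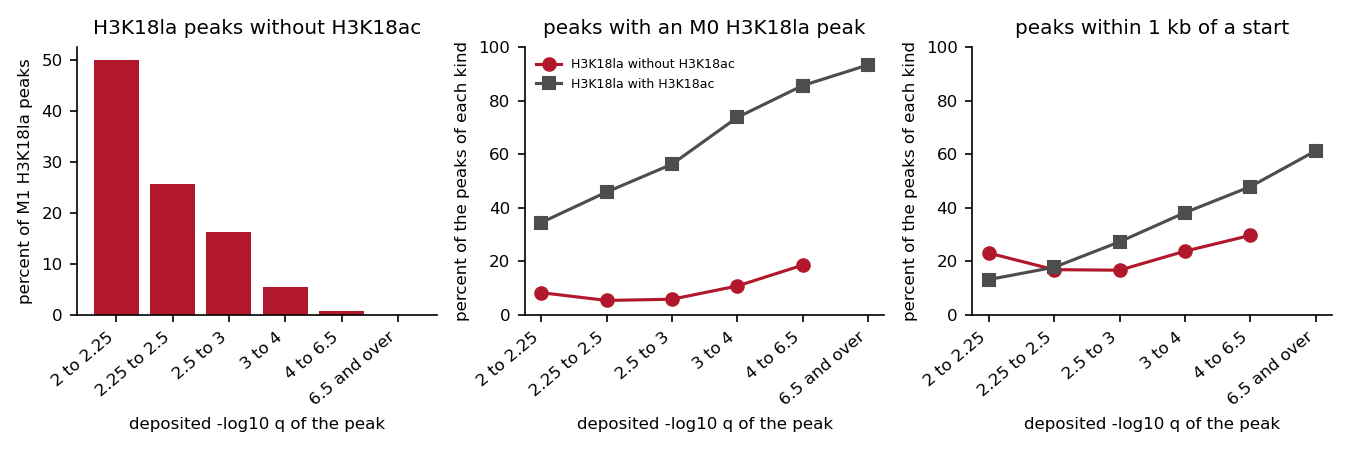
Share of M1 H3K18la peaks without an H3K18ac peak (left), and the percent of H3K18la peaks without and with H3K18ac that had an M0 H3K18la peak (middle) or lay within 1 kb of a transcription start (right), by deposited -log10 q. The share without H3K18ac goes from 50% in the weakest class to 0 in the strongest, while the M0 H3K18la share stays lower without H3K18ac in each class that has such peaks.

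Most of the 853 places carried neither mark in M0 macrophages, although this depended on which M1 H3K18ac peaks were counted. No M0 peak of either mark overlapped 654 of them (76.7%, 95% Wilson interval 73.7 to 79.4), against 6.87% of the H3K18la peaks with H3K18ac and 10.2% of those in the same strength range. The share was 55.2% when only H3K18ac over at least 50% of the H3K18la peak counted, and 43.0%, no longer most, when only H3K18ac peaks with a -log10 q of at least 5 counted. An M0 H3K18la peak was found at 59 (6.92%, interval 5.40 to 8.82), against 81.6% with H3K18ac and 70.9% in the same strength range. An M0 H3K18ac peak was found at 190 (22.3%, interval 19.6 to 25.2), against 93.0% and 89.7% in the same strength range. The intervals cover the counting of peaks only, and with 1 library per mark and state they say nothing of replicate spread.

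The gap in M0 H3K18la held in each strength class. An M0 H3K18la peak lay under 8.20% of peaks without H3K18ac and 34.4% of those with it at -log10 q of 2 to 2.25, and under 10.7% and 73.7% at -log10 q of 3 to 4. The M0 H3K18ac shares in the same 2 classes were 24.6% and 83.6%, and 20.6% and 90.4%.

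Among places that were marked in M0, H3K18ac alone was more frequent than H3K18la alone: 140 of the 853 had only H3K18ac in M0, 50 had both marks and 9 had only H3K18la. Of the 50 with both marks, 39 (78%) lay within 1 kb of a transcription start, against 19 of 140 (13.6%) with H3K18ac only and 96 of 654 (14.7%) with neither. They also lay further from the remaining M1 H3K18ac, with a median of 8932 bases, against 1367 bases for the places with H3K18ac only in M0 and 3456 bases for those with neither mark. Their median fold enrichment, 3.22, was close to the 3.18 of both other classes.

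**Figure D2:**
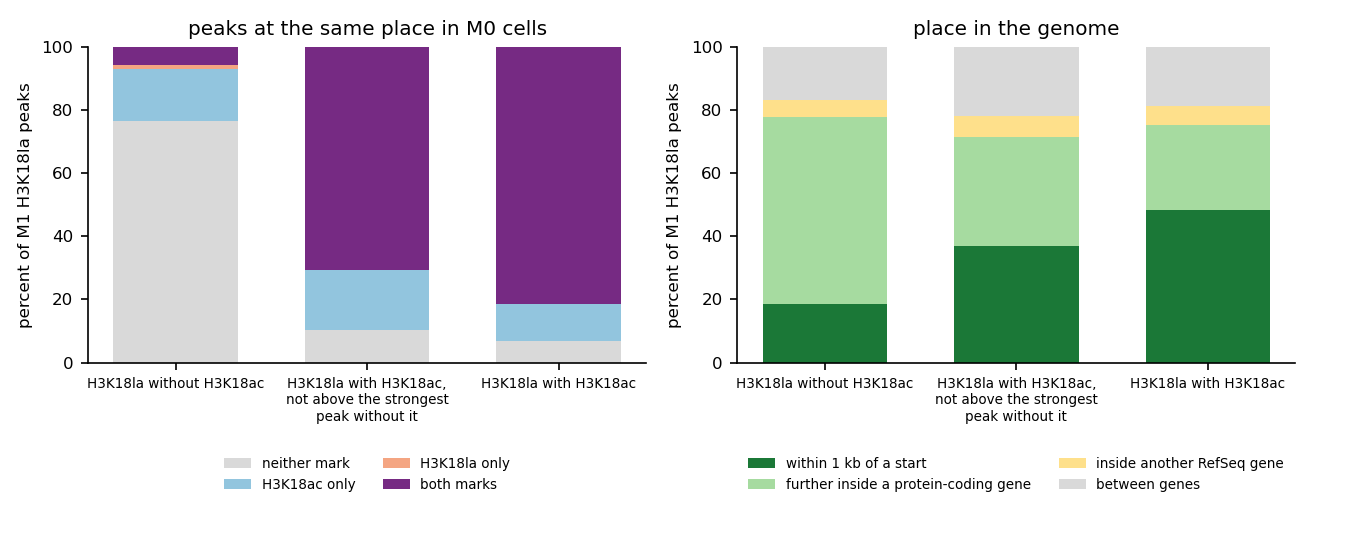
Percent of M1 H3K18la peaks by the M0 peaks at the same place (left) and by place in the genome (right), for the 853 peaks without H3K18ac, the 7982 with H3K18ac in the same strength range and all 15286 with H3K18ac. Neither mark in M0 accounts for 76.7% of the peaks without H3K18ac, and 59.1% of them lie inside a protein-coding gene away from its start.

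The peaks without H3K18ac lay mainly inside gene bodies. Of the 853, 504 (59.1%, interval 55.8 to 62.3) were inside a RefSeq protein-coding gene and more than 1 kb from a start, against 27.0% of H3K18la peaks with H3K18ac and 34.6% in the same strength range. Another 159 (18.6%, interval 16.2 to 21.4) lay within 1 kb of a start, against 48.3% and 36.8% in the same strength range. The remaining 46 (5.39%) were in other RefSeq genes and 144 (16.9%) between genes, against 5.97% and 18.8% with H3K18ac, and 6.68% and 21.9% in the same strength range. By strength the order at starts was not uniform. At -log10 q of 2 to 2.25, 23% of peaks without H3K18ac and 13.1% of those with it were at a start. At 2.25 to 2.5, the class with most peaks without H3K18ac, the shares were close, at 16.8% and 17.7%. They were 16.6% and 27.2% at 2.5 to 3, 23.7% and 38.1% at 3 to 4, and 29.6% and 47.8% at 4 to 6.5. Gene-body shares were not split by strength class. The annotation used has no exon coordinates, so exons, introns and UTRs are not told apart, and for 24.4% of the 853 the nearest start is an end of a gene whose strand it does not give.

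At starts of known strand, the peaks without H3K18ac sat beside the start more than over it. Of 113 such peaks within 1 kb, 29 (25.7%) covered the start, 60 (53.1%) lay downstream of it and 24 (21.2%) upstream. Of 6035 H3K18la peaks with H3K18ac, 76.7% covered the start, 18.7% lay downstream and 4.52% upstream. In the same strength range there were 2391, of which 64.3% covered the start, 28.4% lay downstream and 7.32% upstream. These are positions of called edges, were not split by strength class and carry no test.

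Although none overlapped H3K18ac, many lay near it. The median distance to the nearest M1 H3K18ac peak was 3186 bases, with quartiles of 1087 and 10027. An H3K18ac peak was within 1000 bases of 193 of the 853 (22.6%), within 10000 bases of 638 (74.8%) and within 50000 bases of 820 (96.1%), and 274 (32.1%) had one within 10 kb on both sides. The nearest H3K18la peak with H3K18ac was further off, at a median of 15176 bases. At the edge of the rule, 24 of the 853 lay within 100 bases of an H3K18ac peak, and 57 H3K18la peaks were not counted although they shared at most 100 bases with one.

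**Figure D3:**
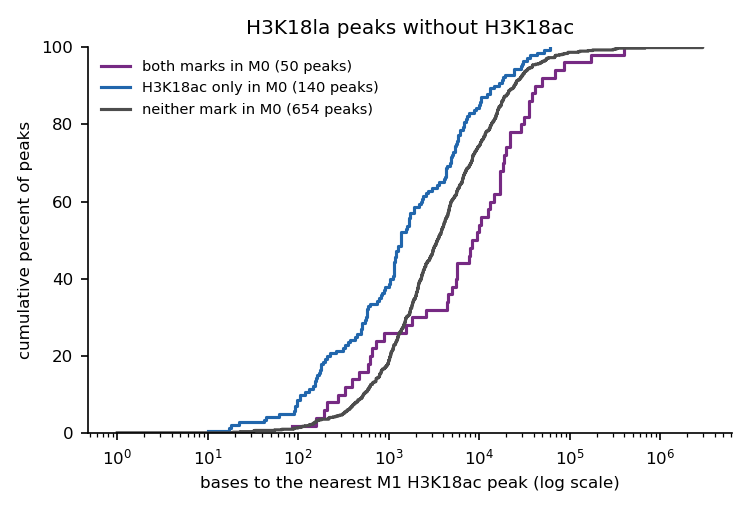
Cumulative percent of the H3K18la peaks without H3K18ac by distance in bases to the nearest M1 H3K18ac peak (log scale), by their M0 state. The 50 peaks with both marks in M0 reach their median at 8932 bases, against 1367 for the 140 with H3K18ac only in M0 and 3456 for the 654 with neither.

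The 3 closest on the inside were a 495 bp peak at Dph7 that touched an H3K18ac peak (chr2:24963099-24963593), an 847 bp peak in Tubb6 10 bases away and a 1205 bp peak in Bin1 17 bases away. The 3 closest on the outside shared 1 base with H3K18ac in Anks1, 2 in Usp44 and 5 in Cops9. Their fold enrichments were 3.12, 3.25 and 3.24 inside and 3.07, 3.14 and 3.08 outside.

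The peaks of highest fold enrichment were narrow. The highest, 4.47 with a -log10 q of 6.12, was 304 bp long inside Clip1, which encodes a microtubule plus-end binding protein (chr5:123582564-123582867), 55 bases from H3K18ac. The next were 312 bp between genes near Rbm34 (4.20, chr8:126975558-126975869), 336 bp inside Plaur, the urokinase receptor gene (4.18, chr7:24472476-24472811), 283 bp starting 90 bases from the start of the arginine methyltransferase gene Prmt3 (3.94, chr7:49778448-49778730) and 611 bp over the start of Fam229a (3.92, chr4:129491043-129491653). The Prmt3 peak lay wholly within M0 peaks of both marks, the Fam229a peak shared 116 bases with M0 H3K18ac, and the other 3 had neither mark in M0.

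The 5 widest peaks had fold enrichments of 3.07 to 3.62, around the median of 3.18 of all 853. The widest, 2864 bp with a fold enrichment of 3.07, covered a start of Gata2, a transcription factor gene of blood progenitors and mast cells (chr6:88198662-88201525), and the nearest H3K18ac was 13679 bases away. The others were 2639 bp in Arid3b (fold 3.34), 2565 bp in Zmynd8 (3.62), 2321 bp between genes (3.21, chr11:61021003-61023323) and 2320 bp over Nfyb and Hcfc2 (3.48). Only the Nfyb peak met an M0 peak, by 10 bases of H3K18la. Gata2 was below the expression filter and was not tested.

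Length and M0 state did not sort together. Of 61 peaks of at most 300 bp, 26.2% had M0 H3K18ac, against 23.5% of 247 peaks longer than 1000 bp. The shortest class had the higher median fold enrichment, 3.47 against 3.18, and the higher share at starts, 26.2% against 22.7%. A group of 5 peaks, all between genes and with neither mark in M0, had a fold enrichment below 2.5. Of these, 4 lay on chromosome 9, beginning at bases 2999960, 3015077, 3031800 and 124256565, and 1 on chromosome 2 (chr2:98666851-98667268). Repeats and mapping at these places were not checked.

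Peaks without H3K18ac were spread unevenly over chromosomes. They made up 7.43% of the H3K18la peaks of chromosome 19 (45 peaks), 7.36% of chromosome 8 (64) and 7.17% of chromosome 11 (99). On chromosome 16 they were 2.71% (15 peaks), and on chromosome X 1 of 198 (0.505%, Wilson interval 0.0892 to 2.80). In all, 599 protein-coding genes had the centre of such a peak inside them and 28 had 2 or more, led by Tbc1d16, a Rab GTPase-activating protein gene, with 4, and Cux1, a homeobox factor gene, and Slc12a5, a potassium-chloride transporter gene, with 3 each. Csf2 was the nearest start of 5, spread from chr11:54178304 to chr11:54252457, of which 2 were within 10 kb.

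Links to genes that M1 activation is known for were counted by list. A gene was linked to a peak when it was the gene of the nearest start and that start was within 10 kb. This gave 502 genes for 521 of the 853 peaks. For 138 of the 502, the start used was an end of a gene of unknown strand, so the peak may lie at the far end. Actb, Csf3, Fosl1 and H2-Ab1 are among these 138. Those 502 are 2.29% of 21883 protein-coding genes, and 7917 (36.2%) were linked to H3K18la with H3K18ac, and the counts by list are read against these shares. None of 26 genes of glycolysis and lactate handling was linked to a peak without H3K18ac, while 23 were linked to H3K18la with H3K18ac. The corresponding counts were 2 and 17 of 31 inflammatory mediators (Csf3 and Il12b without H3K18ac), 1 and 28 of 31 interferon-stimulated genes (Irf7), 2 and 29 of 29 regulators of the NF-kB and AP-1 pathways (Batf and Fosl1), and 2 and 19 of 29 repair and growth factor genes (Pdgfa and Thbs1). Of 20 macrophage identity genes 0 were linked to a peak without H3K18ac and 17 to one with it, and of 20 M2 markers 0 and 12. Arg1, Nos2, Vegfa and Ldha were linked to H3K18la with H3K18ac only, and Actb to both kinds of peak.

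Genes of sterol metabolism had 4 links, the highest count among the lists. Of 27 genes of cholesterol synthesis and LXR targets, 4 were linked to a peak without H3K18ac (Dhcr7, Lss, Scd1 and Srebf1) and 14 to a peak with it, against the 2.29% and 36.2% of all protein-coding genes. No test was made of the list's count. Histone acyl writers and erasers gave 2 of 25 (Hdac5 and Sirt6), cell cycle genes 1 of 30 (Ube2c), genes of MHC presentation 1 of 21 (H2-Ab1), and lymphocyte markers 1 of 15 (Ms4a1, not among the tested genes). Neutrophil and stromal markers gave 0 of 15 each.

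Of the linked genes, 310 were tested in the RNA-seq data, and they changed about as often as other genes. At 24 h against 0 h, 123 were higher (39.7%) and 125 lower (40.3%) by limma on log2(RPKM + 1) at an adjusted p below 0.05, where 39.9% and 37.3% of all 9942 tested genes were called. At 4 h against 0 h, 125 (40.3%) were higher and 139 (44.8%) lower, against 42.5% and 42.7% of all genes. At 24 h against 4 h, 146 (47.1%) were higher and 111 (35.8%) lower, against 42.3% and 41.3%. The median log2 fold change of the 310 at 24 h against 0 h was 0.01, and that of all genes 0.02. With libraries rescaled to equal sums of RPKM, a setting that moved the median of all genes by -0.80, 30 of the 310 were higher and 263 lower at 24 h, against 6.93% and 86.3% of all genes.

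The genes whose peak had carried H3K18ac in M0 split otherwise, with most of them lower. Of the 65 tested genes linked to a peak without M1 H3K18ac but with M0 H3K18ac, 38 (58.5%) were lower at 24 h against 0 h and 17 (26.2%) higher, with a median log2 fold change of -0.32. Over all tested genes at 24 h, 37.3% were lower and 39.9% higher. At 4 h against 0 h, 40 (61.5%) of the 65 were lower and 19 (29.2%) higher, with a median of -0.39. Of all tested genes, 42.7% were lower and 42.5% higher at 4 h. For the 29 of the 65 whose peak had both marks in M0, 20 (69.0%) were lower at 24 h and 5 (17.2%) higher. By contrast, of the 244 genes linked to a peak with neither mark in M0, 36.5% were lower and 41.8% higher at 24 h. Of the 6681 linked to H3K18la with H3K18ac in M1 and with H3K18ac in M0, 35.6% were lower and 41.8% higher. At 4 h against 0 h, 41% of the 244 and 40.4% of the 6681 were lower.

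This set of 65 was described after earlier results were known, and no test was made of the set. Its genes were also less expressed than others at 0 h, with median levels of 2.58 RPKM at 24 h and 3.51 RPKM at 0 h, against 6.14 at 24 h and 6.34 at 0 h over all tested genes, and the part of level in the result was not tested. Leaving out single libraries gave 36 to 38 lower genes. When libraries were rescaled to equal sums of RPKM, 54 of the 65 (83.1%) were lower, against 86.3% of all genes, and the medians were -0.99 for the 65 and -0.78 for all genes. The 2 time points share their 0 h libraries. In bulk RNA, fewer cells of a type and less RNA per cell cannot be told apart.

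**Figure D4:**
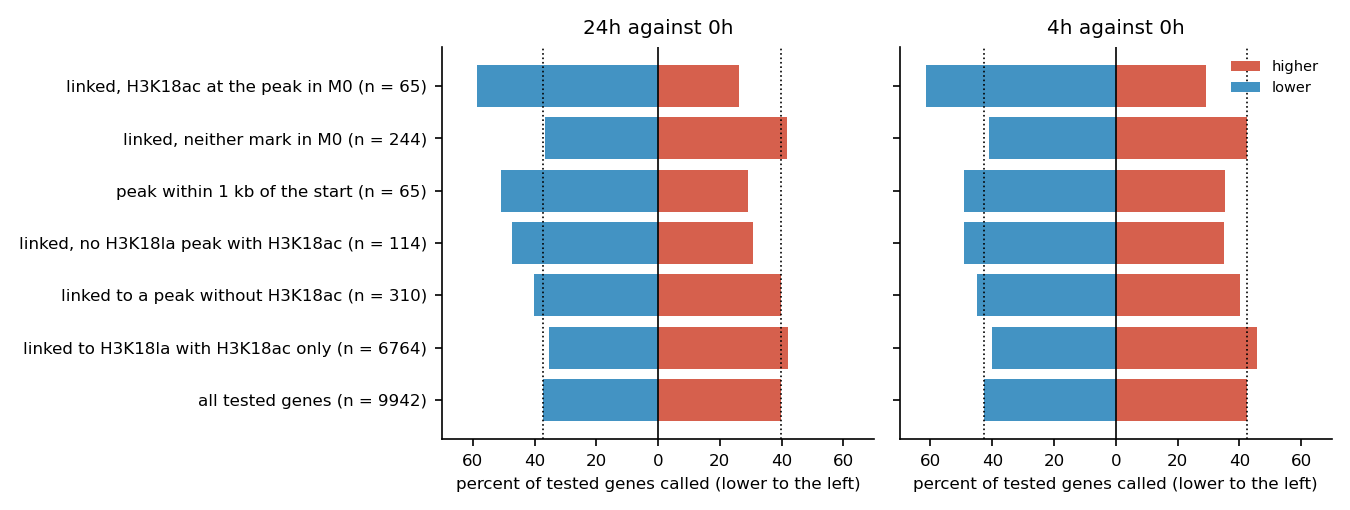
Percent of tested genes called higher (right of 0) and lower (left of 0) by limma for 24 h (left panel) and 4 h (right panel), each against 0 h, for gene sets by their link to H3K18la peaks. Dotted lines are the shares over all 9942 tested genes. The 65 genes whose peak had H3K18ac in M0 have 58.5% and 61.5% lower calls, against 37.3% and 42.7% of all genes.

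Position gave a similar picture. Of 65 tested genes with a peak without H3K18ac within 1 kb of the start, 33 (50.8%) were lower and 19 (29.2%) higher at 24 h. Gene ends of unknown strand count as starts in this set. Over all tested genes the shares were 37.3% lower and 39.9% higher. Of the 114 genes linked to such peaks and to no H3K18la peak with H3K18ac, 54 (47.4%) were lower and 35 (30.7%) higher, and 18 (15.8%) were lower by at least 2-fold, against 5.37% of all genes. Of the 196 linked to both kinds, 71 (36.2%) were lower and 88 (44.9%) higher. These sets overlap one another, so they are not separate observations. Median levels at 0 h were 3.18 RPKM for the 65 genes and 3.36 for the 114, against 6.34 over all tested genes. The part of level was not tested.

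Among the sterol and lipid genes, all 4 linked members of the list were lower at 24 h against 0 h, a call made for 37.3% of all tested genes. The desaturase gene Fads2, named by the size of its change, fell too. Genes of the list without such a peak were not counted by direction, so whether the whole list fell was not tested.

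Lss, lanosterol synthase, had 2.13, 2.27, 2.30 and 1.86 RPKM at 24 h, against 8.22, 7.77, 6.28 and 7.48 RPKM at 0 h. Every 24 h library was below every 0 h library, at a log2 difference of -1.42 with a standard error of 0.06 (limma, adjusted p = 6.1e-20). Its 288 bp peak was wholly under both M0 marks, with the nearest M1 H3K18ac 9993 bases away. The promoter stretch upstream of this peak is the Lss sequence printed above.

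Fads2, which makes polyunsaturated fatty acids, had 6.85, 4.85, 6.45 and 4.24 RPKM at 24 h, against 52.2, 50.3, 40.3 and 50.2 RPKM at 0 h. The groups were far apart, at -2.91 on the log2 scale with a standard error of 0.12 (limma, adjusted p = 2.1e-20). Its peak began 281 bases from the start, and 730 of its 745 bases lay under each M0 mark.

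Dhcr7, a reductase of cholesterol synthesis, had 3.96, 3.95, 4.03 and 3.24 RPKM at 24 h, against 13.0, 12.6, 10.9 and 12.4 RPKM at 0 h (log2 fold change -1.46). Scd1, stearoyl-CoA desaturase, had 0.592, 0.603, 0.852 and 0.594 RPKM at 24 h, against 8.50, 9.87, 7.70 and 12.7 RPKM at 0 h (log2 fold change -2.67). Srebf1, a transcription factor gene of lipid synthesis, changed least, with 11.3, 10.3, 11.8 and 11.9 RPKM at 24 h, against 15.4, 15.1, 15.0 and 15.3 RPKM at 0 h (log2 fold change -0.40, limma adjusted p = 7.9e-07). The peaks linked to these 3 genes had neither mark in M0. In none of these 3 genes did the 24 h and 0 h libraries overlap.

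By time, the fall was already present at 4 h. Mean levels at 0, 4, 8, 16 and 24 h were 7.44, 2.06, 2.21, 3.59 and 2.14 RPKM for Lss, and 9.69, 1.08, 0.663, 0.605 and 0.66 RPKM for Scd1. Dhcr7 was lowest at 8 h, at 1.27 RPKM (SD 0.104, n = 4), and had 4.49 RPKM (SD 0.223, n = 4) at 16 h.

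Other genes whose peak, like those of Lss and Fads2, met both marks in M0 moved in both directions. Rasgrp3, an activator of Ras-family GTPases, averaged 1.45 ± 0.341 RPKM at 24 h and 15.4 ± 1.14 at 0 h (SD, n = 4 each), a log2 fold change of -2.75 (limma adjusted p = 4.0e-27), and was named after its values were seen. Pdgfa, a growth factor gene with 2 such peaks at its start, had 3.99, 3.03, 3.09 and 5.84 RPKM at 24 h, against 1.24, 1.08, 1.31 and 1.39 RPKM at 0 h, and rose (log2 fold change 1.11, limma adjusted p = 3.4e-11). Prmt3, next to the narrow peak with both M0 marks, averaged 0.993 ± 0.0713 RPKM at 24 h and 1.16 ± 0.0835 at 0 h (SD, n = 4 each), a log2 fold change of -0.12 (limma adjusted p = 0.027) whose call was lost without 0 h replicate 1 or 24 h replicate 3, with equal medians and when the 2 groups were fitted alone (adjusted p of 0.057 to 0.13). Setd6, a lysine methyltransferase gene with a like peak, averaged 5.41 ± 0.723 RPKM at 24 h and 2.29 ± 0.226 at 0 h, a log2 fold change of 0.96; both were named after their values were seen.

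Csf2, Gfi1, Csf3 and Nr4a1, named after their values were seen or as list members, and Il12b had levels at 4 h above those at 24 h. Csf2, which encodes GM-CSF and has 1 linked peak over its start with neither M0 mark and 1 at 1740 bases with M0 H3K18ac, had 4.98, 4.13, 4.23 and 4.79 RPKM at 4 h, against 0.0146 RPKM in 1 library and 0 in the others at 0 h. At 4 h it stood 2.46 above 0 h on the log2(RPKM + 1) scale, with a standard error of 0.05 (limma, adjusted p = 1.2e-28). At 24 h, the time of the ChIP libraries, its level was between 0 and 0.0425 RPKM, and the groups at 24 h and 0 h overlapped.

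Gfi1, a zinc finger repressor of blood development, had 2.23, 2.06, 2.04 and 2.02 RPKM at 4 h, against 0 to 0.0112 RPKM at 0 h. It averaged 0.0488 RPKM at 24 h (SD 0.0252, n = 4). The log2 fold change of 0.06 against 0 h did not pass the test (limma adjusted p = 0.071). Each 24 h library, at 0.0289 to 0.0838 RPKM, was nevertheless above each 0 h library. Il12b, an interleukin subunit, had 119, 132, 146 and 133 RPKM at 4 h, against 0 to 0.0306 RPKM at 0 h, and 0.856, 0.589, 0.540 and 0.683 RPKM at 24 h. Csf3, which encodes G-CSF, had mean levels of 13.7, 26 and 0.195 RPKM at 4, 8 and 24 h. In the 24 h libraries Il12b was higher than in the 0 h libraries by 0.71 on the log2(RPKM + 1) scale (limma adjusted p = 3.5e-08). Csf3 (0.25, limma adjusted p = 0.14) did not pass. Its 24 h libraries, at 0.107 to 0.265 RPKM, were nevertheless all above its 0 h libraries, at 0 to 0.0152. Nr4a1, an immediate-early nuclear receptor gene, averaged 0.364 RPKM at 0 h (SD 0.033), 1.41 at 4 h (SD 0.221) and 0.395 at 24 h (SD 0.0833, n = 4 each).

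**Figure D5:**
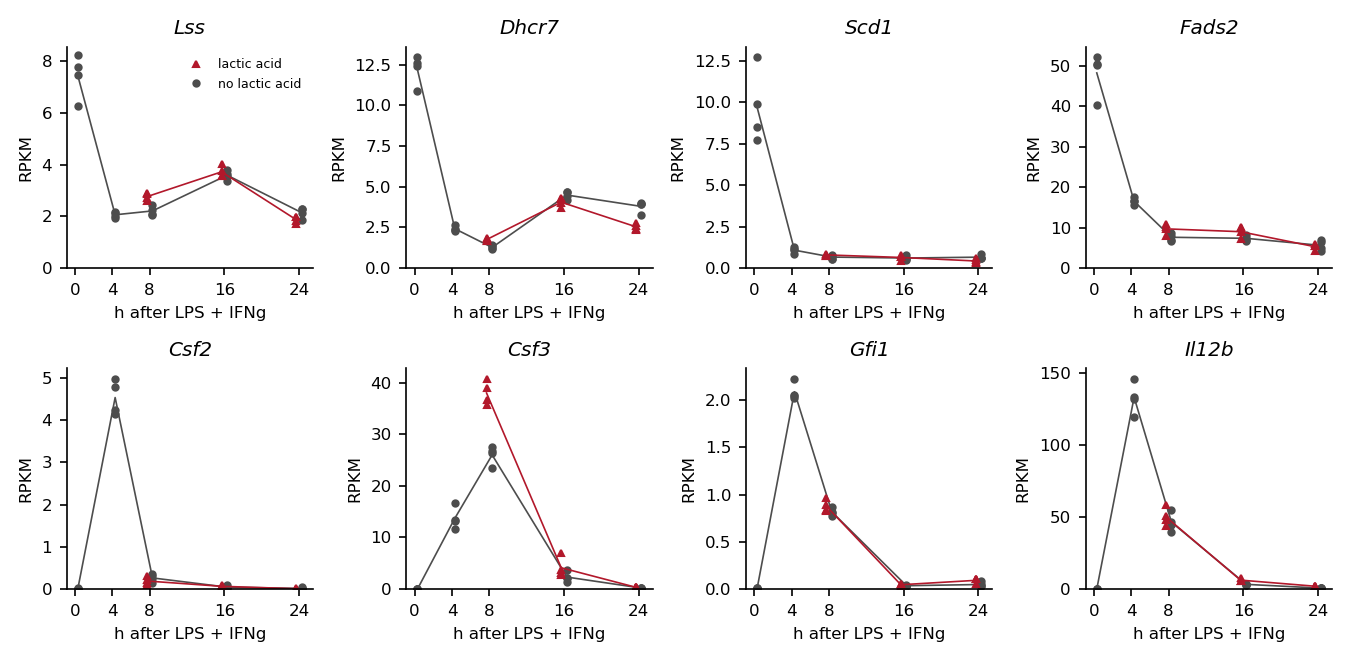
RPKM of 8 genes linked to an H3K18la peak without H3K18ac, by hours of LPS and IFNg, with triangles for cells that also received lactic acid and circles for cells that did not; points are libraries (offset sideways for view), lines join group means (n = 4). Lss, Dhcr7, Scd1 and Fads2 stand lower at each later time than at 0 h, and Csf2, Gfi1 and Il12b have their highest level at 4 h and Csf3 at 8 h.

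Among linked genes with a mean of at least 3 on the log2(RPKM + 1) scale, the level set for naming, those that rose most at 24 h included genes of interferon response and antigen presentation, and all of those below had neither mark at the peak in M0 and also an H3K18la peak with H3K18ac. Irf7, the interferon response regulator, had 588, 529, 590 and 687 RPKM at 24 h, against 33.3, 40, 46.9 and 38.3 RPKM at 0 h (log2 fold change 3.89 with a standard error of 0.08, limma adjusted p = 2.5e-28). H2-Ab1, a chain of MHC class II, averaged 47.9 ± 9.81 RPKM at 24 h and 3.86 ± 0.565 at 0 h (SD, n = 4 each), a log2 fold change of 3.32. Procr, the endothelial protein C receptor, had a log2 fold change of 3.31, Thbs1, thrombospondin, of 2.95, and Ero1l, an oxidase of the endoplasmic reticulum, of 2.19. Smaller rises were those of Slc15a3, a peptide and histidine transporter (1.87), Fas, the death receptor (1.68), Nat9 (1.51) and Batf, an AP-1 family factor (1.35).

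Genes above the same level that fell, besides the lipid genes, included Ube2c, a ubiquitin-conjugating enzyme of mitosis, with 0.1, 0.13, 0.144 and 0.249 RPKM at 24 h, against 30.3, 28.9, 28.4 and 26.6 RPKM at 0 h (log2 fold change -4.68, limma adjusted p = 5.3e-33). Ap3d1, an adaptor subunit of vesicle traffic, had a log2 fold change of -1.83, Eif4ebp2, a repressor of translation initiation, of -1.60, Rcc2, a mitotic regulator, of -1.37 and Kpna2, an importin, of -1.35. Sec14l1 (-0.81) and Rasgef1b (-0.79) fell less. Of the histone modifiers, the deacetylase gene Hdac5 was lower at 4 h, by 2.19 on the log2 scale below 0 h, and had a log2 fold change of -0.01 at 24 h that did not pass the test, and Sirt6, a sirtuin, was higher by 0.39 at 24 h but lower, at -0.41, with libraries rescaled to equal sums of RPKM.

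The largest changes at 4 h against 0 h among the linked genes were those of Il12b (7.03), Batf (3.89) and Slc15a3 (3.35) upwards, and Sec14l1 (-2.86), Eif4ebp2 (-2.03) and Tor4a (-1.97) downwards, among genes above the level set for naming. Among the same genes at 24 h against 4 h, Nat9 (2.5), Thbs1 (2.24) and Sec14l1 (2.05) were highest, and Il12b (-6.33), Etnk1 (-2.55) and Batf (-2.54) lowest.

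With added lactic acid, linked genes were called at shares near those of all genes. In LA cells at 24 h against cells at 24 h without LA, 92 of the 310 (29.7%) were higher and 62 (20%) lower, against 25.5% and 21.7% of all genes. Fitting the 2 groups alone called 47 of the 310 higher and 37 lower, against 12.6% and 10.1% of all genes. With libraries rescaled to equal sums of RPKM 26 were higher and 142 lower, against 6.67% and 52.5% of all genes. For the 65 genes whose peak had M0 H3K18ac, 12 (18.5%) were higher and 18 (27.7%) lower, with a median log2 fold change of 0.01, and for the 244 with neither mark 80 (32.8%) were higher and 43 (17.6%) lower.

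Among linked genes above the level set for naming, the largest rise with LA was that of Procr, at 234, 193, 193 and 203 RPKM with LA, against 91.2, 78.4, 75.8 and 99.3 RPKM without (log2 fold change 1.25 with a standard error of 0.1, limma adjusted p = 3.7e-11). The groups did not overlap. Ero1l had 124, 119, 117 and 163 RPKM with LA, against 61.5, 65.5, 70.6 and 62.2 RPKM without (0.99), followed at that level by Thbs1 (0.98), Rasgef1b (0.89), H2-Ab1 (0.88), Il12b (0.83), Tubb6, a tubulin (0.65), and Gab2, a signalling adaptor (0.57). Pdgfa averaged 5.86 ± 0.239 RPKM with LA and 3.99 ± 1.31 without (SD, n = 4 each), and was higher by 0.49.

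Among the linked genes above that level that fell with LA, Tifab had 23.8, 16.8, 22 and 21.3 RPKM with LA, against 26.4, 32.1, 33.2 and 28.8 RPKM without. These groups did not overlap, and the log2 difference was -0.51 with a standard error of 0.08 (limma, adjusted p = 1.4e-05). Ap3d1 (-0.49), C1qbp, a mitochondrial matrix protein (-0.48), Dhcr7 (-0.44), Rcc2 (-0.43), Tgfbi, an extracellular matrix protein (-0.43), Cbfb, a partner of RUNX factors (-0.41), and Dnajc7, a co-chaperone (-0.39), were lower too. Lss (-0.13), Scd1 (-0.22), Srebf1 (-0.08) and Fads2 (-0.06) did not pass the test. The LA and non-LA comparisons share the 24 h libraries with those above.

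Promoters that met a peak without H3K18ac were rich in G and C. Of 21237 RefSeq promoter windows, each 250 bases before to 50 after a start, 46 windows of 40 genes met such a peak. A shared base was enough, as at Lss with 1 base. A window was counted here even if another M1 peak also met it. Their median GC content was 65.3%, against 62.0% for 6761 windows under H3K18la with H3K18ac, 58.8% for 3174 windows under H3K18ac only and 51.0% for 11256 windows with no M1 peak. By observed over expected CpG, however, they stood at 0.68, against 0.81 under H3K18la with H3K18ac, 0.72 under H3K18ac only and 0.29 with no peak, and 23 (50%) were CpG-rich (GC of at least 55% and a ratio of at least 0.65), against 65.4%, 49.1% and 18.3%.

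Of the motifs searched on both strands, the GC box was found in 20 of the 46 windows (43.5%), against 48.4% under H3K18la with H3K18ac and 33.9% of all windows. The short C/EBP site TTGCNNAA was found in 11 (23.9%, Wilson interval 13.9 to 37.9), against 7.42% and 10.2%. Several of the 46 windows overlap each other at one gene, so a site can count more than once. The interval takes the windows as separate, and no count by gene was made. The E-box CACGTG was in 6 (13.0%), against 10.9% and 7.84%, and the AP-1 motif TGANTCA in 1 (2.17%), against 4.67% and 6.99%. No window held the PU.1 core GAGGAAGT, the NF-kB motif, the interferon-stimulated response element, the C/EBP palindrome TTGCGCAA, which contains the short site, the CTCF core or the sterol element TCACNCCAC. Over all windows these stood in 3.13%, 1.61%, 3.34%, 0.221%, 0.414% and 1.19%. A match is a match of letters only.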

How the data were processed

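ChIP-seq peak lists and RNA-seq values were used as deposited. Per the submitters' processing notes, Bowtie2 2.2.6, HISAT2 2.1.0, SAMtools 0.1.19, featureCounts 1.5.0-p1, edgeR and MACS2 2.2.1 were used with builds mm10 and GRCm38; which step used which build is not given in the sources used here. The authors' broad peak lists give each peak a score, a fold enrichment and -log10 p and q values. The authors deposited read counts per ChIP library with a spike-in ratio, and RPKM for 32 RNA libraries. The authors' own log2 fold changes and p-values per gene were not used.

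Overlap was 1 shared base. Nearest starts came from RefSeq GRCm38.p6: promoter entries for 17491 of 21883 protein-coding genes, and both gene ends for the other 4392. RNA was tested with limma 3.58.1 (R 4.3.3, trend, all 8 groups in 1 fit with 24 residual degrees of freedom) on log2(RPKM + 1), for 9942 of 11184 listed genes with at least 1 RPKM in 4 libraries. RPKM keeps no depth. It divides by gene length and library total, so a few very abundant genes can move all others. P-values were adjusted over all tested genes by Benjamini-Hochberg. Fold changes on this scale understate those of low genes.

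The peaks described, the gene lists and the extra settings were chosen with earlier results of these data known. Genes were named by the size of their called change within a comparison (up to 8 each way for 24 h against 0 h and for LA, up to 3 for the others, at a mean of at least 3 on the log2 scale) or as linked list members; Lss, Srebf1, Csf2, Gfi1, Nr4a1, Rasgrp3, Prmt3 and Setd6 were added after their values were seen. Peaks were named as the 5 of highest fold, the 5 widest and the 3 on each side of the rule's edge. No genome sequence was used, so peak sequences are not shown. One gene that the naming rule and a list held is not reported here, and that list was counted without it.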

Additional observations from a re-analysis of the deposited data

Results flagged for a closer look

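Of 168 groups of 4 libraries looked at for the 42 named genes, 9 held a library far from the other three, and chance flags about 1 group in 20. In Csf2, 0 h replicate 1 had 0.0146 RPKM and LA 24 h replicate 3 had 0.0322, with the others at 0. In Csf3, 0 h replicate 3 had 0.0152 RPKM and the others 0. In Gfi1, LA 24 h replicate 3 had 0.0556 RPKM, against 0.102 to 0.108. Dhcr7 at 24 h had 3.24 RPKM in replicate 4, against 3.95 to 4.03, and Scd1 at 24 h had 0.852 RPKM in replicate 3, against 0.592 to 0.603. Setd6 at 24 h had 6.49 RPKM in replicate 4, against 4.99 to 5.10. In LA cells at 24 h, Ero1l had 163 RPKM in replicate 4, against 117 to 124, and Tgfbi had 83.7 in replicate 1, against 95.8 to 97.6.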

How the results depend on the processing

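With 1 library per mark and state, membership itself moves with the peak thresholds. The number of peaks without H3K18ac, 853, was 1353 when only H3K18ac over at least 50% of the peak counted, 1992 when only H3K18ac with a -log10 q of at least 5 counted, and 3 when only H3K18la peaks of that strength were taken. The share with M0 H3K18la was then 27.0%, 35.1% and 0%, that with M0 H3K18ac 44.1%, 56.0% and 0%, that within 1 kb of a start 32.2%, 35.4% and 0%, and that with neither mark in M0 55.2%, 43.0% and 100%. Requiring H3K18ac to be 1 kb away gave 18.8% with M0 H3K18ac and 80.6% with neither mark. Requiring M0 peaks to cover 50% of the peak gave 3.75% with M0 H3K18la and 14.1% with M0 H3K18ac, and 85.5% with neither so covered. A 5 kb window put 46.0% at a start, and genes of the promoter table alone 13.4%.

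Rescaling libraries to equal sums of RPKM, a setting chosen after seeing the data, shifted the median of all genes by -0.80 (24 h against 0 h), -0.53 (4 h against 0 h), -0.28 (24 h against 4 h) and -0.21 (LA). Of the 310 linked genes, 30 were then higher and 263 lower, 60 and 227, 94 and 158, and 26 and 142. Of all tested genes, 6.93% were then higher and 86.3% lower, 20.4% and 67.5%, 29% and 54.8%, and 6.67% and 52.5%. Among linked genes, higher calls were 10.2%, 20.9%, 37.3% and 15.5% of calls, against 49.6%, 47.3%, 56.8% and 59.7% without this rescaling. Of the 65 genes with M0 H3K18ac at the peak, 7 (10.8%) were higher and 54 (83.1%) lower at 24 h against 0 h. Of all genes, 6.93% were higher and 86.3% lower there. At 4 h against 0 h, 10 (15.4%) of the 65 were higher and 51 (78.5%) lower, against 20.4% and 67.5% of all genes. Signs turned for 15 gene values. At 24 h against 0 h these were Gab2 (-0.75), Nr4a1 (-0.27), Sirt6 (-0.41), Tgfbi (-0.41), Tor4a (-0.88) and Tubb6 (-0.36). At 4 h against 0 h they were Cbfb (-0.38), Dnajc7 (-0.29), Ero1l (-0.01), Kpna2 (-0.30), Sirt6 (-0.25) and Ube2c (-0.54), at 24 h against 4 h Lss (-0.19), and with LA Hdac5 (-0.07) and Irf7 (-0.07). Gene lengths were not in the table, so equal medians stood in for the planned rescaling by length, and they shifted the median by 0.06 at most.

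Links by 1 kb left 65 tested genes, with 19 higher (29.2%) and 33 lower (50.8%) at 24 h against 0 h. At 4 h against 0 h they were 23 (35.4%) and 32 (49.2%), and at 24 h against 4 h 26 (40%) and 24 (36.9%). With LA they were 15 (23.1%) and 16 (24.6%). The shares of all tested genes, in the same order, were 39.9% and 37.3%, 42.5% and 42.7%, 42.3% and 41.3%, and 25.5% and 21.7%. Links by 50 kb gave 473 tested genes, with 180 higher (38.1%) and 190 lower (40.2%) at 24 h against 0 h. At 4 h against 0 h, 189 (40%) of them were higher and 217 (45.9%) lower. At 24 h against 4 h, 216 (45.7%) were higher and 178 (37.6%) lower, and with LA 133 (28.1%) and 92 (19.5%). For the 65 genes with M0 H3K18ac at the peak, a 1 kb link left 33 tested. Of these, 6 (18.2%) were higher and 22 (66.7%) lower at 24 h against 0 h, and 10 (30.3%) and 21 (63.6%) at 4 h. A 50 kb link gave 107 tested, with 27 (25.2%) and 62 (57.9%) at 24 h, and 33 (30.8%) and 65 (60.7%) at 4 h. Fewer or more genes enter by construction. With genes of the promoter table alone, 250 were tested, and 99 (39.6%) were higher and 101 (40.4%) lower at 24 h against 0 h. Fitting the 2 LA groups alone gave 47 of the 310 linked genes higher and 37 lower, against 12.6% and 10.1% of all genes. Leaving out 1 library gave 118 to 124 higher and 118 to 126 lower (24 h against 0 h), 117 to 122 and 134 to 140 (4 h against 0 h), 140 to 149 and 107 to 119 (24 h against 4 h), and 78 to 109 and 55 to 73 (LA). Correlations of the deviations of libraries with the same replicate number ran from -0.643 to 0.511. Libraries of different numbers were not compared, so whether the numbers pair libraries was not tested. With the replicate as a block, 123 were higher and 125 lower at 24 h against 0 h, 125 and 139 at 4 h, 146 and 111 at 24 h against 4 h, and 93 and 58 with LA. Of the gene values, 2263 kept direction and side of the threshold, 41 lost the call and 33 gained one.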
